A study of Homo sapiens with 6 samples.

Results

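The E2F and DP transcription factors were described in MV4-11 cells, an established human acute myeloid leukemia (AML) cell line with a KMT2A rearrangement and an internal tandem duplication in FLT3. The members were E2F1 to E2F8 and the DP genes TFDP1 and TFDP2, taken by gene symbol. All 10 members were found once each among the 20348 genes of the deposited table. RNA-seq was made from 3 Control samples of untreated MV4-11 cells and 3 samples of MV4-11 cells treated for 48 h with 1 μM WNK463, which inhibits kinases of the WNK family. The cells are 1 line at 1 dose and 1 time point, and the labels do not say whether the 3 samples of a group were separate cultures, so p-values measure the spread between these samples, which may be technical.

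E2F proteins bind DNA as partners of a DP protein, except the atypical E2F7 and E2F8, which bind without one. In resting cells the retinoblastoma protein RB and its relatives p107 and p130, the pocket proteins, hold E2Fs in check, and cyclin-dependent kinases release them before the S phase. E2F1, E2F2 and E2F3 are known as activators of genes for the G1/S transition and DNA replication. E2F4 and E2F5 repress together with pocket proteins in G0 and early G1, E2F6 represses through a Polycomb complex, and E2F7 and E2F8 switch E2F target genes off again late in the cycle.

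With WNK463, 8 of the 10 members fell, E2F5 rose, and E2F6 did not pass the test, with the call of E2F3 depending on the scaling. The genes were tested on the counts with edgeR's quasi-likelihood test, and a gene passed at a Benjamini-Hochberg adjusted p below 0.05 over all 11973 genes tested. All 10 members were above its filter on low counts. Most tested genes passed in this comparison. Of all tested genes 70.8% passed, 35.3% as lower and 35.5% as higher, so that a call by itself says little, and the size of the change is given beside it. E2F8, E2F2 and E2F1 had a log2 fold change of at most -1, a size that 5.55% of tested genes reached, and no member had one of at least 1, as 9.62% of tested genes did. The median log2 fold change was -0.79 over the 10 members and 0.02 over all tested genes. Activator and atypical E2Fs and both DP genes were lower throughout, while the 3 repressor E2Fs split into 1 lower, 1 higher and 1 that did not pass.

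The promoter sequences below show where the members' own genes carry letters of the known E2F motif. E2F1 and several other members are known E2F target genes, so their promoters were searched for the octamers TTTCCCGC, TTTCGCGC, TTTGCCGC and TTTGGCGC on both strands. The windows come from RefSeq (GRCh38.p14), run from 250 bases before to 50 bases after a transcription start, and were matched by symbol for 8 of the 10 members. E2F5 and E2F8 were not matched. An octamer was found for E2F1, E2F2, E2F3 and TFDP1, and E2F4 is shown as a member that fell without one. For each, 160 bases are shown 5′ to 3′ on the strand of the gene with the octamers in capitals, up to position -1 before the start, or up to position -33 for TFDP1. They lie at chr20:33686386-33686545 on the minus strand for E2F1, chr1:23531234-23531393 on the minus strand for E2F2, chr6:20401719-20401878 on the plus strand for E2F3, chr13:113584561-113584720 on the plus strand for TFDP1 and chr16:67191995-67192154 on the plus strand for E2F4.
E2F1: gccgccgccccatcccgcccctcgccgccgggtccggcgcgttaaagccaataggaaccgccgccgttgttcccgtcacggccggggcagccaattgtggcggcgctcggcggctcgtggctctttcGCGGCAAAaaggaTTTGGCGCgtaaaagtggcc
E2F2: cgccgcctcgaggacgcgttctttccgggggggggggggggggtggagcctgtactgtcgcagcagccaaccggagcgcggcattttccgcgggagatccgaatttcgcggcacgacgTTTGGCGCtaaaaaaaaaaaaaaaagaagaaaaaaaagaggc
E2F3: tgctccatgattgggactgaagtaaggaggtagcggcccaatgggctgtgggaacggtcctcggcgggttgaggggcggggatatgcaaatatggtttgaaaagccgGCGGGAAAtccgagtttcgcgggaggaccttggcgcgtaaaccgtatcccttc
TFDP1: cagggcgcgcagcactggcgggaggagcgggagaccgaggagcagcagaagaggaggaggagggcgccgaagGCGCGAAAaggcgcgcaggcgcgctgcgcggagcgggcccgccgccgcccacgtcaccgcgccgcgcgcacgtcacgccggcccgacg
E2F4: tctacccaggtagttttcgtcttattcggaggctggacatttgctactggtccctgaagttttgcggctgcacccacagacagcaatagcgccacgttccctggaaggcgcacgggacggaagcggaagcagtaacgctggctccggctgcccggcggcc
The base just before the start counts as position -1. The E2F1 window held 2 octamers, TTTGCCGC read on the opposite strand from position -33 and TTTGGCGC from position -20. The E2F2 window held TTTGGCGC from position -42. The window of the first E2F3 start held TTTCCCGC on the opposite strand from position -53, and the window of its second start held none. The TFDP1 window held TTTCGCGC on the opposite strand from position -120. No octamer was found in the windows of E2F4, E2F6, E2F7 and TFDP2. The octamers occurred in 3.31% of the 35116 promoters in the table. Counted by gene, as for the members, they were found for 6.95% of the other tested genes with a window. A match is a description of these letters, and binding of an E2F was not measured.

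E2F1 and E2F2, activators that drive entry into S phase, fell to 40.8% and 37.4% of Control. E2F1 (ENSG00000101412) is a gene of chromosome 20, minus strand, spanning 33675683 to 33686404 (GRCh38, GENCODE 29). Its CPM (counts per 1000000 counts of the library, scaled with edgeR's TMM factors) were 55.8, 51.8 and 52.3 in Control and 19.6, 24.0 and 21.8 with WNK463. Every WNK463 sample lay below every Control sample. The log2 fold change was -1.29 (standard error 0.08, 95% interval -1.46 to -1.13, adjusted p = 1.1e-10 from edgeR), and 2.97% of tested genes changed as far down or further.

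E2F2 (ENSG00000007968), on chromosome 1 from 23506430 to 23531220, had 29.8, 30.4 and 27.6 CPM in Control and 10.3, 10.8 and 11.7 CPM with WNK463, again without overlap. Its log2 fold change was -1.42 (standard error 0.09, 95% interval -1.61 to -1.22, adjusted p = 2.4e-10 from edgeR). E2F3 (ENSG00000112242), on chromosome 6 from 20401906 to 20493715, is the activator that RNA levels moved least. It had 41.0, 43.3 and 42.8 CPM in Control and 34.8, 30.3 and 37.9 CPM with WNK463. The groups did not overlap in CPM, and E2F3 stood at 81.0% of Control, with a log2 fold change of -0.30 (standard error 0.08, adjusted p = 0.0023 from edgeR). This call did not hold with scaling by total counts (-0.15, adjusted p = 0.091 from edgeR) or with limma on log2(TPM + 1) (-0.09, adjusted p = 0.39), and in TPM (transcripts per 1000000) the groups overlapped. In the deposited counts, 2 annotated pseudogenes of E2F3 have no row of their own, so reads shared with them are an uncertainty.

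**Figure D1:**
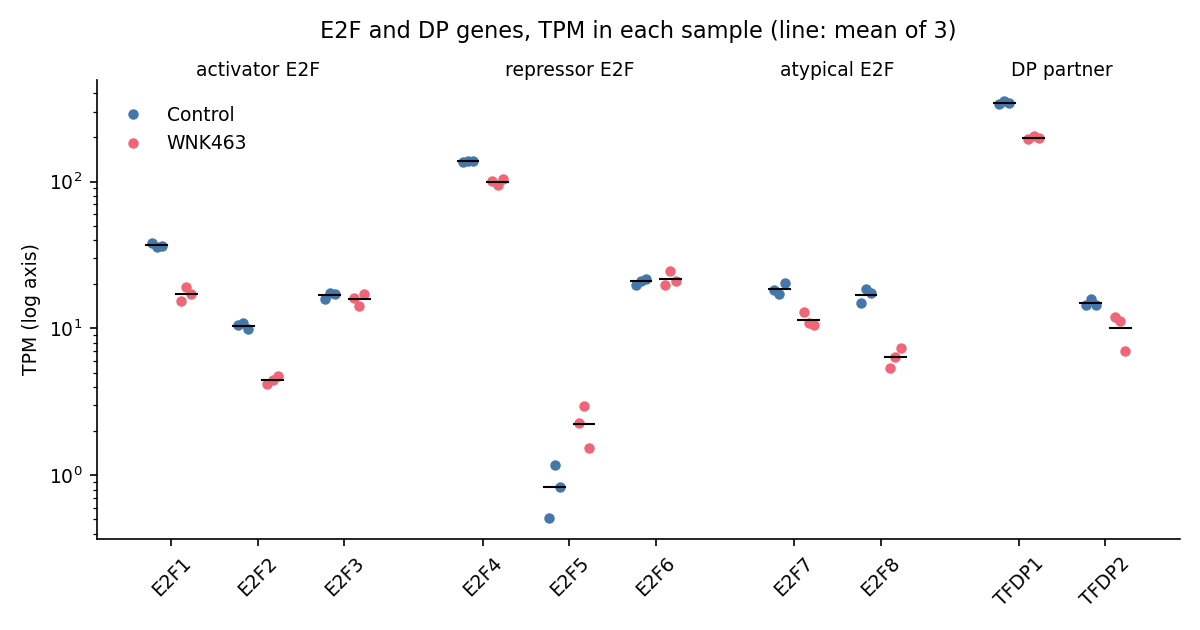
TPM of each E2F and DP gene on a log axis, with 1 point per sample, a line at the mean of 3 samples, Control in blue and WNK463 in red. TFDP1 and E2F4 had the highest levels in both groups, E2F5 had the lowest and rose from a mean of 0.838 to 2.25 TPM, and the groups overlapped for E2F3 and E2F6.

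Of the repressor E2Fs, E2F4 fell, E2F5 rose from a low level and E2F6 did not pass the test. E2F4 (ENSG00000205250), the main E2F of pocket protein complexes in resting cells, lies on chromosome 16 from 67192169 to 67198918. It had 155, 156 and 156 CPM in Control and 100.6, 93.8 and 103 CPM with WNK463. The groups were far apart for the small spread within each, and E2F4 stood at 63.7% of Control. Its log2 fold change was -0.65 (standard error 0.05, 95% interval -0.76 to -0.54, adjusted p = 3.4e-09 from edgeR). A change as low or lower was found in 12.9% of tested genes.

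E2F5 (ENSG00000133740), a repressor that also partners p130, lies on chromosome 8 from 85177225 to 85217158. It had few reads, with counts of 23, 41 and 28 in Control and 61, 72 and 53 with WNK463. The corresponding CPM were 1.40, 2.81 and 1.71 against 3.68, 4.19 and 3.38. Control replicate 2 was the highest Control sample, and all WNK463 samples lay above it. The log2 fold change was 0.94 (standard error 0.27, 95% interval 0.38 to 1.50, adjusted p = 0.0043 from edgeR), the widest interval of the members. With each sample left out in turn it lay between 0.74 and 1.26. The exons of E2F5 overlap 2 antisense genes, and the libraries' strand setting is not given in the sources used here, so reads of E2F5 and of such a gene cannot be told apart. One of these antisense genes, RBIS, had counts of 426, 412 and 465 in Control and 428, 514 and 322 with WNK463, with a log2 fold change of -0.11 (adjusted p = 0.36 from edgeR).

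E2F6 (ENSG00000169016), the repressor that needs no pocket protein, lies on chromosome 2 from 11444375 to 11466177. It had 28.3, 26.4 and 27.6 CPM in Control and 24.6, 26.5 and 26.2 CPM with WNK463, and the groups overlapped. The log2 fold change was -0.09 (95% interval -0.25 to 0.07, adjusted p = 0.29 from edgeR), and it was 0.06 with scaling by total counts. The lower end of the interval lay above the log2 fold changes of E2F1, E2F2 and E2F4. Annotated pseudogenes of E2F4 (1) and E2F6 (4) have no row of their own either, so shared reads are an uncertainty here too.

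Both atypical E2Fs fell, E2F8 further than E2F7. E2F7 (ENSG00000165891), on chromosome 12 from 77021247 to 77065580, had 46.7, 49.7 and 51.8 CPM in Control and 30.5, 27.8 and 28.2 CPM with WNK463. It stood at 58.4% of Control without overlap, with a log2 fold change of -0.78 (standard error 0.07, 95% interval -0.93 to -0.63, adjusted p = 2.3e-08 from edgeR). E2F8 (ENSG00000129173), on chromosome 11 from 19224063 to 19241620, had 26.7, 30.2 and 31.8 CPM in Control and 9.12, 10.6 and 9.96 CPM with WNK463. It had the lowest log2 fold change of the 10 members, at -1.58 (standard error 0.10, 95% interval -1.79 to -1.37, adjusted p = 1.8e-10 from edgeR), and stood at 33.5% of Control. In 1.71% of tested genes the change was as low or lower. The exons of E2F8 also overlap 1 antisense gene, which has no row in the table.

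Both DP genes fell, and TFDP1 was the member with the smallest p, at rank 153 of the tested genes. TFDP1 (ENSG00000198176), which encodes DP1, the main dimerization partner of the E2Fs, lies on chromosome 13 from 113584721 to 113641470. It had 428, 436 and 427 CPM in Control and 214, 219.7 and 223 CPM with WNK463. Its samples lay close together within each group, and its level stood at 50.9% of Control, with a log2 fold change of -0.97 (standard error 0.04, 95% interval -1.07 to -0.88, adjusted p = 2.2e-12 from edgeR). TFDP2 (ENSG00000114126), which encodes DP2, lies on chromosome 3 from 141944428 to 142149544. It had 28.7, 30.9 and 30.1 CPM in Control and 17.6, 19.0 and 15.1 CPM with WNK463, without overlap. Its log2 fold change was -0.80 (standard error 0.09, 95% interval -0.99 to -0.60, adjusted p = 4.1e-07 from edgeR). With limma on log2(TPM + 1) without a filter it was -0.55 and did not pass, at an adjusted p of 0.051.

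**Figure D2:**
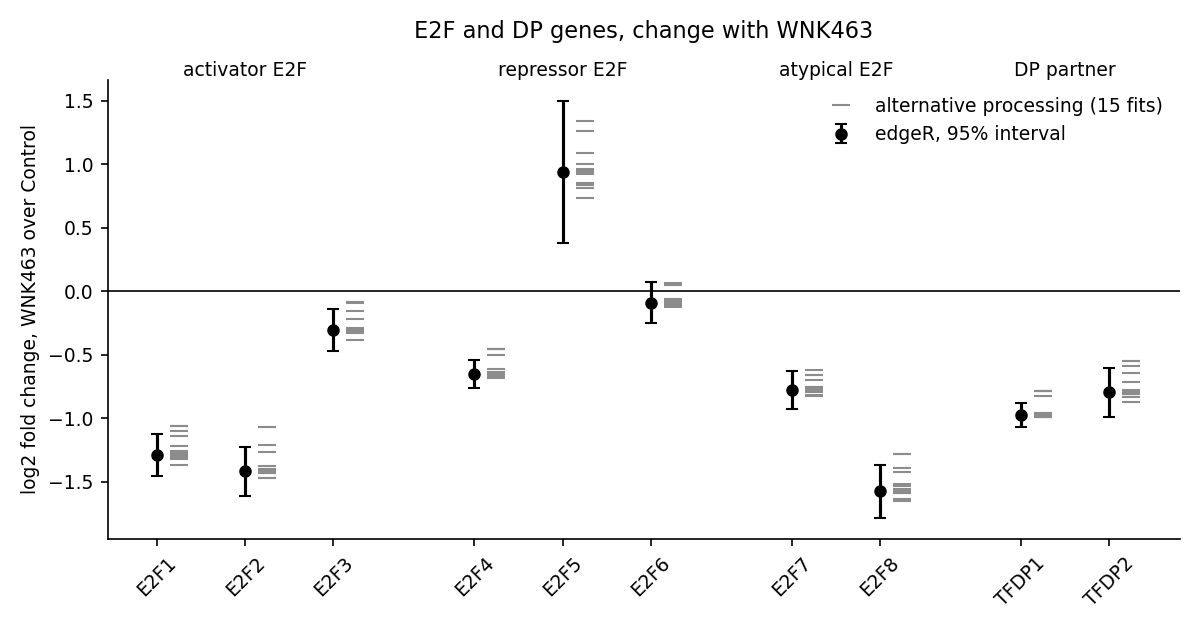
Log2 fold change of each E2F and DP gene, WNK463 over Control, with the edgeR estimate and its 95% interval as a black point and bar, and the 15 alternative fits as gray ticks. E2F1, E2F2, E2F4, E2F7, E2F8, TFDP1 and TFDP2 stayed below 0 and E2F5 above 0 in each fit, E2F3 came as near as -0.09, and E2F6 lay on both sides of 0.

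In CPM, 8 members had all WNK463 samples below all Control samples and E2F5 had them above, patterns found in 36.4% and 37.1% of tested genes. In bulk RNA, fewer cells that use a gene and less of its RNA per cell cannot be told apart, so the share of cells in each phase of the cycle is not known from these values. The same values also depend on the scaling. When libraries were scaled by their total counts, the median log2 fold change of tested genes was 0.15 higher than with TMM, and the call split changed from 4222 lower and 4251 higher genes to 3123 lower and 5525 higher. With that scaling 7 members were lower and 1 higher.

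To compare levels between genes, TPM values were used, which account for transcript length. TFDP1 was the most abundant member, with 345 ± 9.49 TPM in Control and 199 ± 5.13 TPM with WNK463 (SD, n = 3 each). E2F4 was the most abundant E2F, falling from 137 ± 1.95 to 100.2 ± 4.60 TPM (SD, n = 3 each). E2F1 followed in Control at 36.8 ± 1.11 TPM and had 17.2 ± 1.81 TPM with WNK463, where it lay below E2F6 at 21.8 ± 2.50 TPM (SD, n = 3 each). In Control, E2F6, E2F7, E2F8 and E2F3 came next, from 21.0 down to 16.9 TPM, and each pair of neighbors in this order overlapped between samples. TFDP2 had 14.9, E2F2 10.5 and E2F5 0.838 TPM. With WNK463 the order below E2F6 was E2F1, E2F3, E2F7, TFDP2, E2F8, E2F2 and E2F5, and the neighbors E2F1 and E2F3, E2F7 and TFDP2, and TFDP2 and E2F8 overlapped.

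Summed by class, the 3 repressor E2Fs made up the larger share of E2F transcripts in every sample, and that share was higher with WNK463. Their summed TPM was 159 ± 3.13 in Control and 124 ± 2.29 with WNK463, which was 61.5% and 69.2% of the summed TPM of the 8 E2F genes (SD, n = 3 each). Most of it was E2F4. The activators went from 64.1 ± 0.592 to 37.5 ± 1.595 TPM and their share from 24.8% to 20.9%. The atypical E2Fs went from 35.5 ± 2.34 to 17.8 ± 0.618 TPM and their share from 13.7% to 9.94%. None of these shares overlapped between the groups. In CPM, 36.4% of tested genes lay wholly lower and 37.1% wholly higher with WNK463, so such separation says little by itself. The summed TPM of TFDP1 and TFDP2 was divided by that of all 8 E2F genes, including E2F7 and E2F8, which bind without a DP. This ratio was 1.39, 1.42 and 1.36 in Control and 1.17, 1.22 and 1.12 with WNK463. The DP transcripts were thus fewer per transcript of the 8 E2F genes in each WNK463 sample.

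Within a class, ratios of counts between members do not depend on the scaling of the libraries. The 8 pairs within the 4 classes were compared with an exact two-sided permutation test, in which 3 samples against 3 cannot give a p below 0.10. The log2 ratio of E2F1 to E2F3 changed by -0.99 and that of E2F2 to E2F3 by -1.11, while that of E2F1 to E2F2 changed by 0.12 and overlapped between the groups (exact permutation p = 0.40). Both E2F1 and E2F2 were lower relative to E2F3 in each WNK463 sample than in any Control sample. Among repressors, the log2 ratio of E2F4 to E2F6 changed by -0.56, that of E2F4 to E2F5 by -1.64 and that of E2F5 to E2F6 by 1.08. The log2 ratio of E2F7 to E2F8 changed by 0.80. That of TFDP1 to TFDP2 changed by -0.17 and overlapped (exact permutation p = 0.30). The 6 pairs without overlap each had an exact permutation p of 0.10 and an adjusted p of 0.13 over the 8 pairs, so none could pass. Separation of the groups was common, as 36.4% of tested genes lay wholly lower and 37.1% wholly higher in CPM with WNK463. How often ratios of other gene pairs separate was not computed, so the count of 6 pairs says little by itself.

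**Figure D3:**
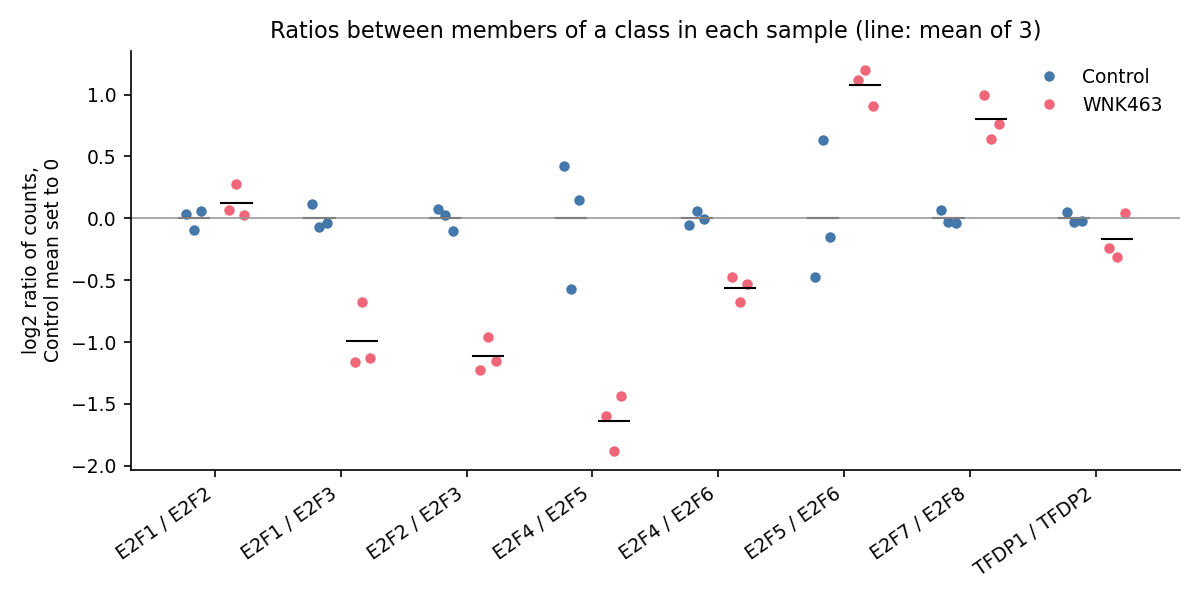
Log2 ratio of counts between 2 members of a class in each sample, with the Control mean set to 0, points for samples and lines for means of 3. The ratios E2F1 to E2F2 and TFDP1 to TFDP2 overlapped between Control (blue) and WNK463 (red), and the other 6 pairs did not. The share of other gene pairs without overlap was not computed.

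Genes that work upstream of the E2Fs went both ways, as did tested genes as a whole, of which 35.3% were lower and 35.5% higher. Of the 8 genes for pocket proteins and the MuvB core, which joins p130 or p107 and E2F4 in the repressive DREAM complex, 4 were lower and 2 higher, and the median log2 fold change was -0.22. RBL1, which encodes p107 and is itself a known E2F target, had a log2 fold change of -1.36 (adjusted p = 4.3e-12 from edgeR). RBBP4, a histone-binding subunit, and LIN9, a scaffold of MuvB, had -0.39 and -0.49. RB1, which encodes RB, rose from 196 ± 18.4 CPM in Control to 298 ± 6.40 CPM (SD, n = 3 each), and its log2 fold change was 0.60 (adjusted p = 4.3e-08 from edgeR). RBL2, which encodes p130, had 0.16 and did not pass without WNK463 replicate 1. LIN37 and LIN52, subunits of MuvB, did not pass, at 0.31 and -0.22.

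Of the 15 genes of the cyclin-CDK input to RB, 6 were lower and 9 higher with edgeR, with a median log2 fold change of 0.28. The shares over all tested genes were 35.3% lower and 35.5% higher. The higher genes numbered 8 with DESeq2, with no filter on low counts, with at least 10 counts in every sample, at an adjusted p below 0.01, and without Control replicate 1, Control replicate 3, WNK463 replicate 2 or WNK463 replicate 3. The lower genes numbered 5 with total counts and with limma on TPM. CDK2 and CCNE2, the kinase and a cyclin that complete the phosphorylation of RB, had log2 fold changes of -1.43 and -1.24. CDK4, a partner of D-type cyclins, had -0.95. CDKN1B, which encodes the CDK inhibitor p27, rose from 86.7 ± 5.14 CPM in Control to 195 ± 1.83 CPM (SD, n = 3 each), and its log2 fold change was 1.17 (adjusted p = 2.4e-12 from edgeR). CDKN1C, which encodes the related inhibitor p57, had counts of 3, 3 and 5 in Control and 72, 58 and 64 with WNK463. CCND3, a D-type cyclin, had a log2 fold change of 0.39.

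Known E2F targets of the G1/S transition were lower. The list was chosen as known E2F target genes with earlier results of these data in view, so its direction is not independent evidence. With edgeR 23 of its 23 genes passed as lower, against 22 in each of the 3 limma fits on TPM. Over all tested genes edgeR called 35.3% lower and 35.5% higher. Of the 23, 18 had a log2 fold change of at most -1, and the median was -1.53 against 0.02 over all tested genes. MYBL2, a transcription factor of the MuvB complex in S phase, had -2.36, and the helicase subunits MCM5 and MCM4 had -2.38 and -1.95. The G2/M list, whose genes are served by MuvB with MYBL2 and FOXM1, moved less. Of its 18 genes 14 were lower and 1 was higher, with a median of -0.55, and 0 reached -1. CDC20, an activator of the anaphase-promoting complex, had -0.80, FOXM1 had -0.78 and the mitotic kinase PLK1 had -0.69. CENPE, a kinetochore motor, was the 1 higher gene, with overlapping groups and a log2 fold change of 0.25 (adjusted p = 0.043 from edgeR). It did not pass without Control replicate 1, WNK463 replicate 1 or WNK463 replicate 2, nor with DESeq2. CCNB2, NEK2 and TTK did not pass, at -0.10, 0.01 and -0.01.

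**Figure D4:**
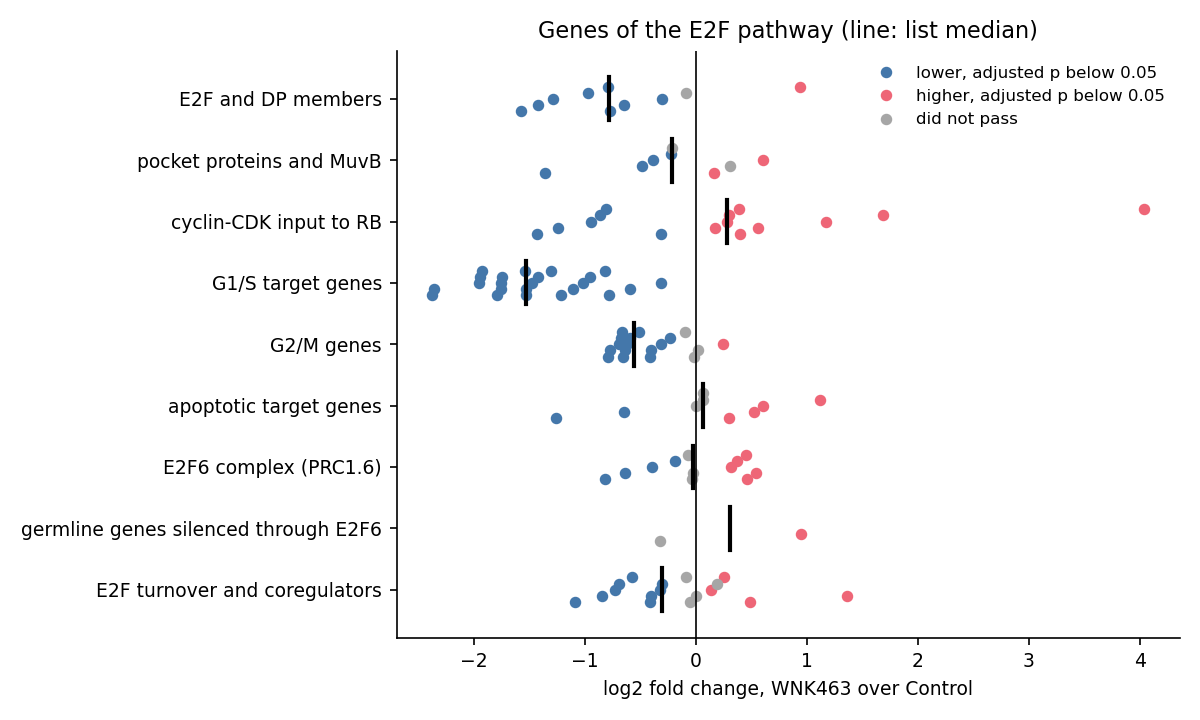
Log2 fold change of the tested genes in the E2F and DP family and 8 lists of the pathway, with 1 point per gene and a bar at the list median. The 23 G1/S genes were all on the lower side with a median of -1.53, the G2/M genes had a median of -0.55, and the other lists had genes on both sides. The point farthest right is CDKN1C, whose Control counts were 3, 3 and 5.

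The remaining lists had no common direction. Their counts of calls stand beside 35.3% lower and 35.5% higher over all tested genes, so they say little about these lists. Of 10 apoptotic genes known as E2F targets 9 were tested, 2 were lower and 4 higher, and the median log2 fold change was 0.07. TP73, a p53 relative induced by E2F1, had -1.26. BCL2L11, which encodes Bim, rose from 73.8 ± 0.551 CPM in Control to 160.4 ± 6.21 CPM (SD, n = 3 each), with a log2 fold change of 1.12, while the initiator caspase CASP9 had 0.52. APAF1, CASP8 and PMAIP1 did not pass, at -0.00, 0.06 and 0.07, and HRK had a count of 0 in every sample.

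Of the 12 genes of the Polycomb complex PRC1.6, through which E2F6 represses, 4 were lower and 5 higher, with a median of -0.03. WDR5, L3MBTL2 and HDAC1 had log2 fold changes of -0.82, -0.64 and -0.39, and MAX, RYBP and RNF2 had 0.54, 0.46 and 0.45. MGA, CBX3 and HDAC2 did not pass. Of 10 germline genes known to be kept silent through E2F6, 8 were below the filter on low counts, and none of these had more than 3 counts in a sample. STAG3, a meiotic cohesin subunit, rose from 13.7 ± 0.963 CPM in Control to 26.3 ± 0.234 CPM (SD, n = 3 each), and its log2 fold change was 0.94 (adjusted p = 3.0e-08 from edgeR). SMC1B, another meiotic cohesin subunit, had -0.33 and did not pass, and the median of the 2 tested genes was 0.31.

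Of 18 genes for E2F turnover and coregulators 17 were tested, 9 were lower and 4 higher, with a median log2 fold change of -0.30. HCFC1, a cofactor that E2F1 recruits with histone methyltransferases, had -1.09. CCNF, the F-box protein that marks E2F1, E2F2 and E2F3 for degradation, had -0.85, and the histone acetyltransferase scaffold TRRAP had -0.57. SERTAD1, a binding partner of DP1, had 1.36, and KAT2B and SERTAD2 had 0.49 and 0.25. RBX1, CREBBP, EAPP and ARID3A did not pass, and TFDP3, a further DP gene, had a count of 0 in every sample.

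Across the promoters of tested genes other than the members, an E2F octamer was found for 6.95% of 9639 genes with a window. The share was 12.8% of 507 genes with a log2 fold change of at most -1, 8.75% of 3461 lower genes and 5.80% of 3378 higher genes. These shares are descriptions and were not tested. Among the G1/S genes it was 12 of 20 genes with a window, among the G2/M genes 2 of 14, and among the members 4 of 8. The G1/S list was chosen as known E2F target genes, and several members are known targets. A high share in these 2 sets was thus built into the choice. Of those 4 members E2F1 and E2F2 fell furthest and E2F3 least, and E2F4, E2F7 and TFDP2 fell without an octamer in these windows. The cell cycle homology region CHR was searched as TTTGAA on both strands. It was found for 9 of 14 G2/M genes, for 1 of 20 G1/S genes and for the members E2F3 and TFDP2. The shares were 13.8% of tested genes and 15.2% of all promoters. The G2/M list was chosen as known cell cycle genes, so its high CHR share was in part built into the choice too. The CCAAT box, searched as CCAAT on both strands, was found for E2F1, E2F3, E2F7 and TFDP2, against 43.3% of tested genes and 34.6% of all promoters. No match of one motif overlapped a match of another in the members' windows.

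**Figure D5:**
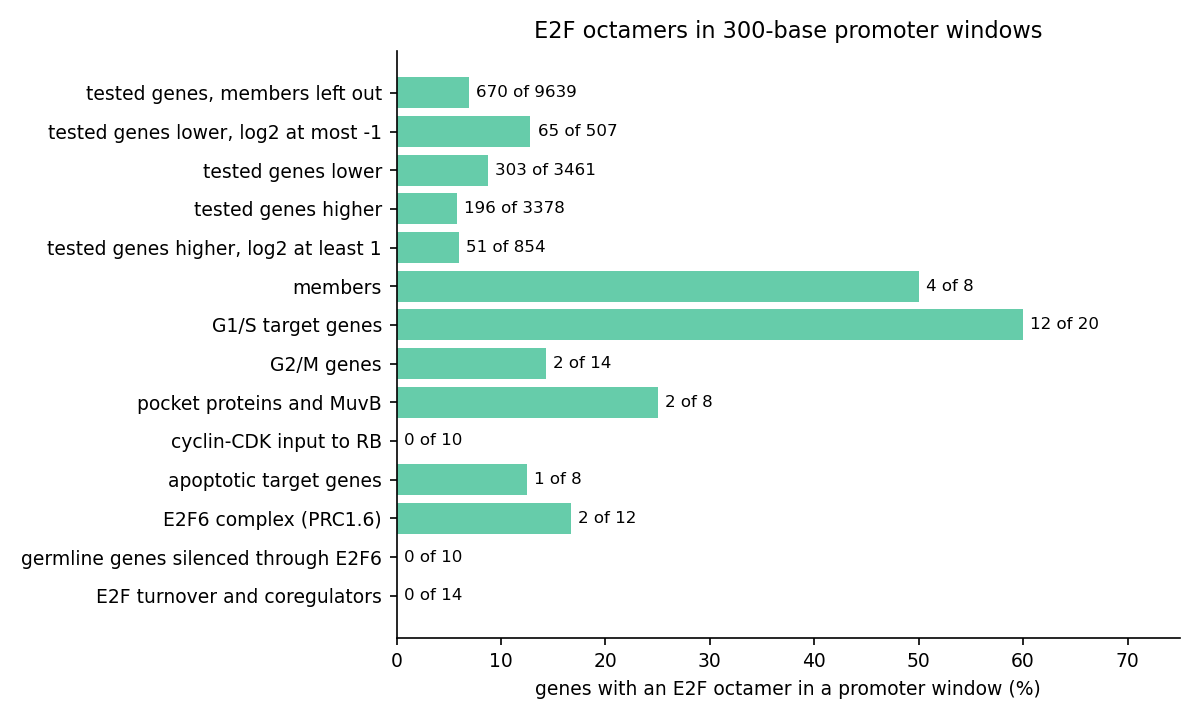
Share of genes with an E2F octamer in a promoter window of 300 bases, in percent, with the number of genes beside each bar. The G1/S genes (12 of 20), chosen as known E2F targets, and the members (4 of 8), several of them known targets, had the longest bars. The tested genes other than the members stood at 6.95%.

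The 3 members with a log2 fold change of at most -1 were also matched to the tested genes whose values over the 6 samples were most like theirs, by the root mean square difference of log2 CPM centered on each gene's mean. For E2F1 these were TP73 at 0.033, RAD51D at 0.037 and GTF2IRD1 at 0.057. For E2F2 they were JPT2 at 0.036, RNASEH2A at 0.050 and SRRD at 0.052. For E2F8 they were DAZAP1 at 0.071, CSPG5 at 0.076 and TIPIN at 0.079. Their log2 fold changes lay between -1.60 and -1.26. This closeness follows from the choice, because the distance is set mostly by the difference between the groups. Shared regulation with the members was not tested.

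Total counts ranged from 14915745 to 17411780 per sample. The variation between replicates estimated by edgeR was 5.21%, and no 2 replicates of a group agreed within counting noise (chi-square divided by its degrees of freedom 2.68 to 7.40). The myeloid label was checked against markers, of which all 13 passed the filter, 5 lower and 6 higher. LYZ, SPI1 and CD4 had the highest levels, with 1697, 297 and 215 TPM in Control and 418, 339 and 389 TPM with WNK463. The summed CPM of 7 T, B and NK cell markers was 1.21 to 1.596 over all samples, with CD3D and MS4A1 at 0. That of 6 erythroid and platelet markers was at most 0.0609, with HBB and HBA1 at 0. The 7 stromal and epithelial markers summed to 103 to 115 CPM in Control and 170 to 185 CPM with WNK463, with EPCAM, CDH1 and COL1A2 at 0. Most of the sum, and of its rise, came from PECAM1, with a mean of 96.9 CPM in Control and 169 CPM with WNK463. KRT18 fell from 10.1 to 6.31 CPM and PDGFRB rose from 0.602 to 1.30 CPM. The sum thus mainly follows a single gene and is no measure of stromal or epithelial cells. The part of these marker changes in the values of the E2F and DP genes was not tested.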

How the data were processed

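RNA-seq of MV4-11 cells covered 3 Control and 3 WNK463 samples (1 μM, 48 h). The authors captured mRNA with beads and sequenced it on an Illumina Novaseq X Plus. The submitters' processing notes name fastp, Bowtie2, HISAT2, StringTie, RSEM, DESeq2, edgeR and GRCh38 without their roles. The authors deposited estimated counts per gene as whole numbers, without normalization, and 62 values were a count of 0 beside a TPM above 0, so the counts were taken as rounded estimates. The deposited TPM values sum to 1000000 per sample. The deposited group means, fold changes and p-values of the authors' own comparison were not used.

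Counts were tested with edgeR 4.0.16 in R 4.3.3 (quasi-likelihood test of the group after filterByExpr at its default, library sizes scaled by TMM, Benjamini-Hochberg adjustment over 11973 genes). Standard errors were derived from the F statistic and the log2 fold change. CPM use TMM library sizes. Alternatives were DESeq2 1.42.0, and limma 3.58.1 on log2(TPM + 1) and log2(TPM + 0.1) with a filter of 1 TPM in at least 3 samples. Without a filter, limma was run on log2(TPM + 1) only. Further alternatives were scaling by total counts or RLE factors, no filter or at least 10 counts in every sample, and stricter thresholds. The replicate number as a block and the 6 fits without a single sample completed them. The fit was tested on simulated data drawn from these libraries. There edgeR recovered 195 of 198 changed genes, with 10 false calls among 11875 genes tested. In the real comparison 70.8% of tested genes passed, a far larger share than was changed in the simulation. How often calls are false with that many changes was not tested.

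The members, lists and rules were chosen with earlier results of these data known. The genes named are the members, in each list the 3 passing genes per direction with the smallest p and the tested genes that did not pass where these were 4 or fewer, at most 3 markers per list by mean TPM, and the 3 genes nearest to each member that passed with a log2 fold change of at least 1 in size. Some genes of the apoptotic list that this rule names are not reported here. Further markers were named because they stood at 0 or made up most of a sum. Positions come from GENCODE 29 on GRCh38, and promoter windows from RefSeq on GRCh38.p14.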

Additional observations from a re-analysis of the deposited data

How the results depend on the processing

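Of 150 pairs of a member and an alternative, 141 kept the direction and the side of the threshold, 5 no longer passed and 4 changed sign. E2F3 did not pass with total counts (log2 fold change -0.15) or with limma on TPM (-0.0856 with a pseudocount of 1, -0.0904 with one of 0.1 and -0.0856 without a filter), and TFDP2 did not pass with limma without a filter (-0.55). E2F6, which passed in no setting, had 0.0607 with total counts and 0.0514, 0.0534 and 0.0514 in the 3 limma fits. With each sample left out, E2F1 lay between -1.37 and -1.22, E2F8 between -1.65 and -1.52 and E2F5 between 0.74 and 1.26. The cause of these shifts was not tested.

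Counts of calls moved by over 1.5 times in 31 of 340 combinations. With a log2 fold change of at least 1, 3 members were lower and 0 higher, against 665 lower and 1152 higher of all tested genes. With that threshold 1 pocket protein or MuvB gene was lower and 0 higher, 2 cyclin-CDK genes were lower and 3 higher, 0 G2/M genes were lower and 0 higher, 1 apoptotic gene was lower and 1 higher, 0 PRC1.6 genes were lower and 0 higher, 0 germline genes were higher, and 1 turnover gene was lower and 1 higher. With limma, 2552, 2510 and 2595 of all tested genes were lower (pseudocounts of 1 and 0.1, and no filter) and 2 pocket protein or MuvB genes were lower in each fit. The 1 higher G2/M gene was lost (0) with DESeq2, with limma at a pseudocount of 0.1 or without a filter and at an adjusted p below 0.01. With each sample left out, the higher G2/M genes numbered 0 to 1 and the higher pocket protein and MuvB genes 1 to 2.

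Deviations from the group means were not shared by samples of equal number (correlations across genes of 0.0188, -0.0071 and -0.048), so the numbers give no pairing. With a replicate block, 8 members were lower and 1 higher, and over all tested genes 4175 were lower and 4223 higher. E2F5 rests on 23 to 72 counts per sample, which limits the precision of its fold change.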

Other observations

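The ratio of count to TPM gives an effective transcript length up to a factor per sample, and it moves when the mix of transcripts counted for a gene changes. After centering, the log2 effective length of E2F5 was 0.32, 0.17 and -0.07 in Control and -0.23, -0.40 and 0.21 with WNK463, with a difference of means of -0.28 and overlapping groups. Of 10661 genes with at least 20 counts in each sample, 3.61% differed as far in either direction. For TFDP2 the values were -0.26, -0.04 and 0.28 in the WNK463 samples against -0.02, -0.02 and 0.07 in Control, so its WNK463 samples differed more among themselves in TPM than in CPM. Transcripts of these genes were not resolved in the deposited table.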
